A study of Sus scrofa with 4 samples.

Results

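Microtubules are hollow polymers of alpha- and beta-tubulin dimers, and the meiotic spindle of an oocyte is built from them. Kinesins are motor proteins that mostly walk toward the plus ends of microtubules, slide them against each other or shorten them, whereas cytoplasmic dynein carries cargo toward the minus ends and focuses spindle poles. In the oocytes of most mammals the spindle forms without centrioles, so that motors and microtubule-associated factors have a large share in giving it its shape.

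The mRNA levels of these tubulin, kinesin and cytoplasmic dynein genes were examined in 4 libraries of Metaphase II oocytes from female pigs (Sus scrofa). Control 1 and Control 2 came from oocytes matured in vitro without added copper, and Cu 1 and Cu 3 from oocytes labelled as exposed to copper, for which the methods give copper sulfate in the maturation medium, with 25 μg/mL as the dose chosen for the experiments, and culture for 44 h. Each library was made from 3 pooled oocytes by Smart-seq2, which copies polyadenylated transcripts from very small samples. The labels do not say which animals the oocytes came from, so the spread between libraries may be partly technical, and with 3 cells per library fewer transcripts per cell and a poorer cDNA yield cannot be told apart.

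Genes were taken by their symbol, namely those that begin with TUBA, TUBB, TUBD, TUBE, KIF (followed by a digit or C), DYNC, DYNLL, DYNLT or DYNLRB, or that are a gamma-tubulin gene. Values were given for 59 such genes of 16050 genes with values. A further 8 matching rows, TUBB1, KIF2B, KIF5A, KIF19, KIF21B, KIF25, KIF26A and KIFC2, held no values, no row matched a gamma-tubulin gene, and rows named only by a LOC number could not match, so these were not analysed here. KIF1BP, which encodes a kinesin-binding protein and no motor, was kept because its symbol fits. FPKM was the unit, a count of fragments divided by transcript length and library size, which is meant to make levels comparable between genes. How evenly the libraries and gene models cover different mRNAs was not tested, so rankings between genes are approximate. Read numbers are lost in this unit, and the depth is unknown. Where a pair of Control values is given, Control 1 comes first. Of the 59 genes, 45 reached 1 FPKM in 2 or more libraries and were tested, and 11 were below 1 FPKM in every library, while none was listed at 0 in all 4.

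The oocyte identity of the libraries was checked with 17 oocyte markers, all of which reached 1 FPKM or more in at least 1 library, with summed values from 9066 to 13340 FPKM. Only 3 of 13 cumulus and granulosa markers did so (FST, SERPINE2 and VCAN), with summed values of 13.6 and 21.3 FPKM in the Control libraries, 31.1 FPKM in Cu 1 and 27.9 FPKM in Cu 3, and AMH was at 0 in every library. The difference in this sum came from SERPINE2, with 1.59 and 2.93 FPKM in the Control libraries, 14.2 FPKM in Cu 1 and 12.7 FPKM in Cu 3, whereas FST ranged from 10.2 to 16.0 FPKM and VCAN from 0.49 to 1.43 FPKM with overlapping groups. Of the blood and immune markers, 2 had values and both stayed below 1 FPKM. The part of these other cells in the results below was not tested. Cu 1 stood apart, with 9364 genes at 1 FPKM or more against 7923 to 8162 in the other libraries. Over the 45 tested genes, log2(FPKM + 1) values had a Pearson's correlation of 0.989 between Control 2 and Cu 3, 0.965 between the Control libraries and 0.922 between Cu 1 and Cu 3, where the points are genes that share their libraries. The genes together took 0.872% and 1.09% of all FPKM in Control 1 and 2, and 0.785% and 1.39% in Cu 1 and 3.

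The levels spanned more than 5 orders of magnitude, from KIF1A, listed at 0.01 FPKM in Control 1 and at 0 elsewhere, to DYNC2LI1, which had 4952 FPKM in Cu 3. By their mean over the libraries, 44 genes were at 1 FPKM or more, 22 at 10 or more and 7 at 100 or more. These 7 were DYNC2LI1, DYNLT1, DYNLL1, DYNC1I2, KIF18A, KIF20B and KIF23, that is 4 dynein chains and 3 kinesins of the spindle and of cell division, and no tubulin matched by symbol was among them.

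**Figure D1:**
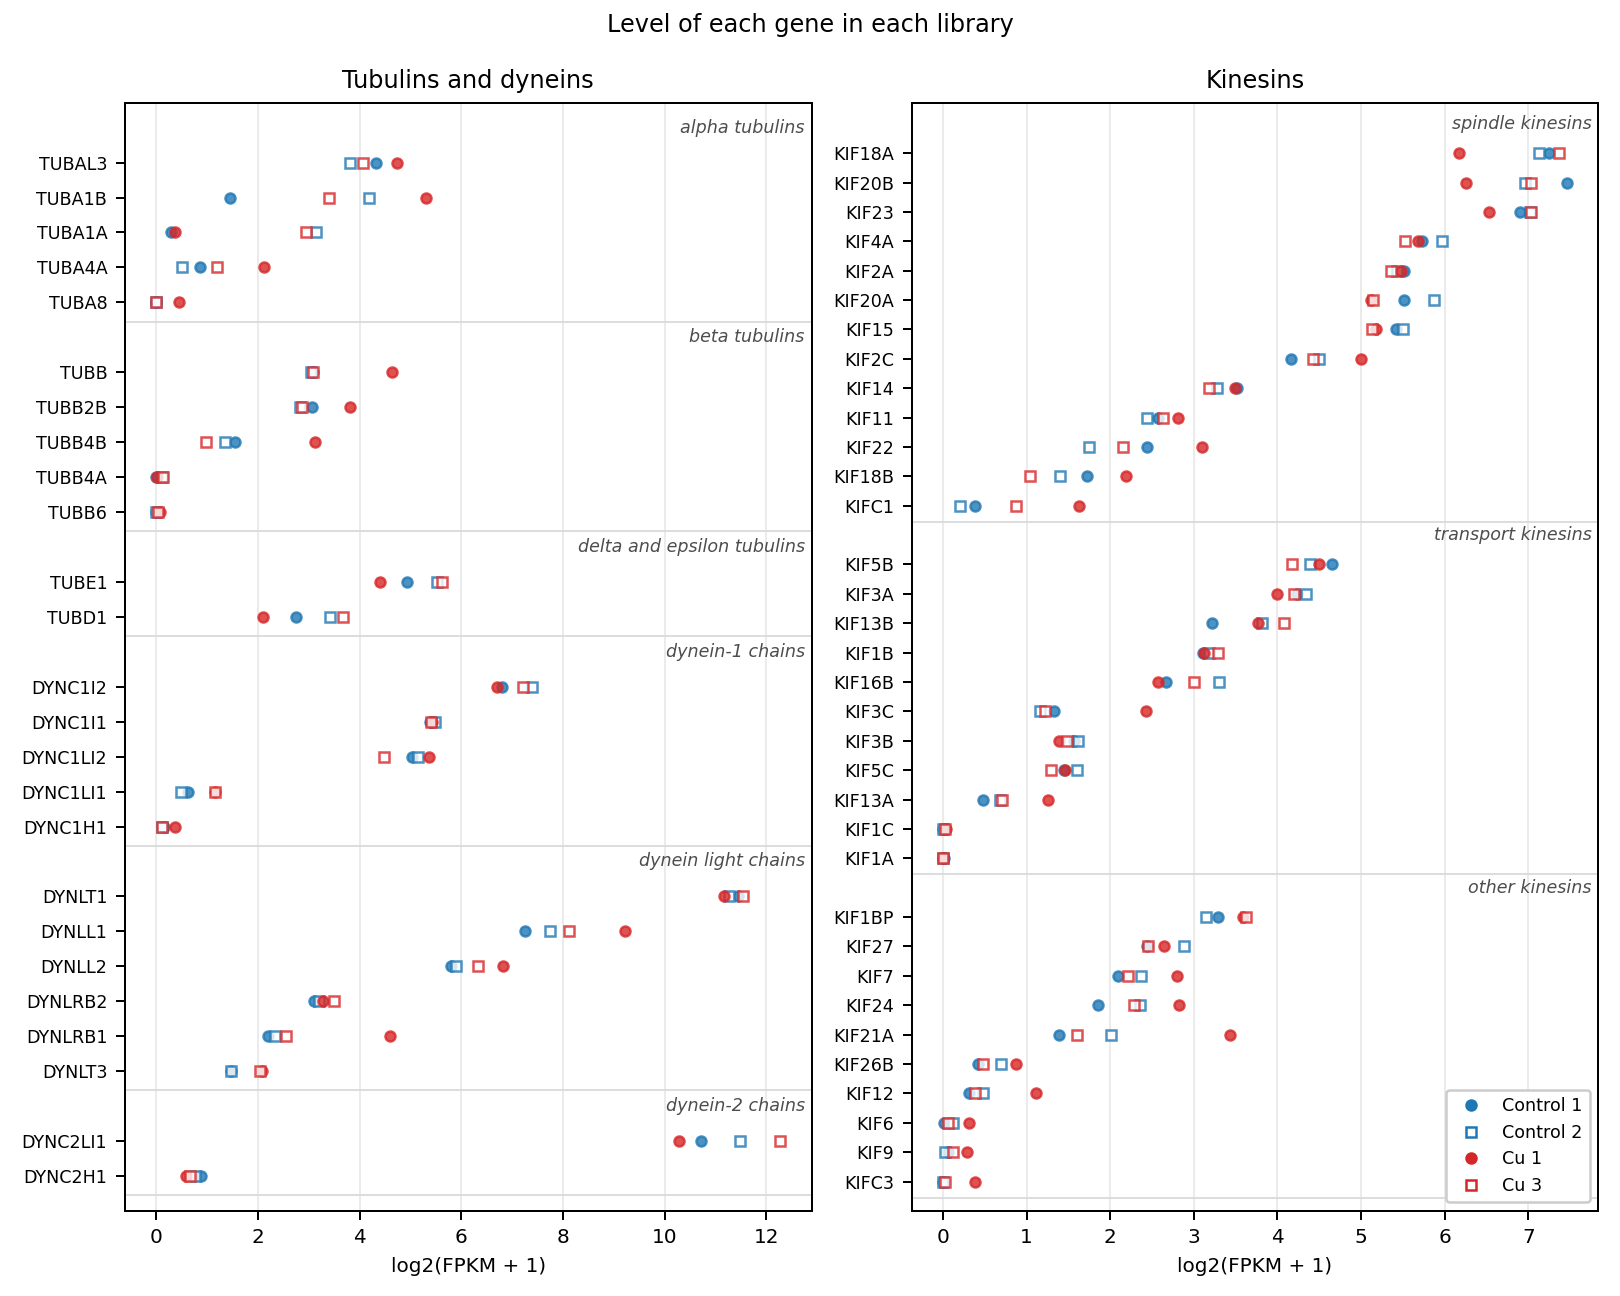
Level of each of the 59 genes as log2(FPKM + 1) (horizontal axis, with its own range in each panel) in the 4 libraries, Control in blue and Cu in red, with filled circles for replicate 1 and open squares for Control 2 and Cu 3, grouped by class and sorted by mean. DYNLT1 and DYNC2LI1 lie farthest right, DYNC1H1 and KIF1A near 0, and Cu 1 (filled red) lies to the right of the other libraries in 19 of the 45 tested genes.

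When Cu was compared with Control by limma, no tubulin, kinesin or dynein gene reached an adjusted p of 0.05, nor did any of the 8541 genes tested (0 of 45 genes here, against a background of 0.0% of all tested genes). The smallest adjusted p was 0.656 here and 0.631 over all genes. At an unadjusted p of 0.05 in limma's test, 1 of the 45 genes, DYNLL1, was higher in Cu, against 5.58% of all tested genes, and 0 were lower, against 1.43%. In 10 of the 45 genes the lower Cu value exceeded the higher Control value (25.4% of all tested genes) and in 5 the reverse held (13.4%), so neither share was above its background. An exact permutation test of 2 libraries against 2 cannot give a two-sided p below 0.333. The median log2 fold change was 0.062 for the 45 genes and 0.16 for all tested genes, and 31 of the 45 lay within 0.5 of 0 on the log2 scale. It was above 0 in 24 of the 45 genes, against 64.3% of all tested genes. These directions depend on the scaling, since the median of the 45 was -0.054 after quantile normalization and -0.10 after median-of-ratios scaling, with 20 and 21 genes above 0. The number of separated genes then was 5 above and 12 below with the first, and 6 above and 12 below with the second. The median of all tested genes was then -0.068 and -0.042, and the share of all genes separated was not computed. These counts therefore have no background beside them. The errors were wide, with a median half-width of 0.926 log2 units for the 95% interval, and only 11 of the 45 intervals lay within 1 log2 unit of 0 on both sides. Without Cu 3, when Cu 1 alone was compared with the Control libraries and was assumed to vary as they do, 11 of the 45 genes passed the adjusted p of 0.05, with TUBA1B, TUBA4A, TUBB, TUBB4B, KIF3C, KIF21A, DYNLL1, DYNLL2 and DYNLRB1 higher and KIF18A and KIF20B lower, as did 1755 of all tested genes (20.5%). Without Cu 1, 0 of the 45 and 186 of all tested genes (2.18%) passed it.

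**Figure D2:**
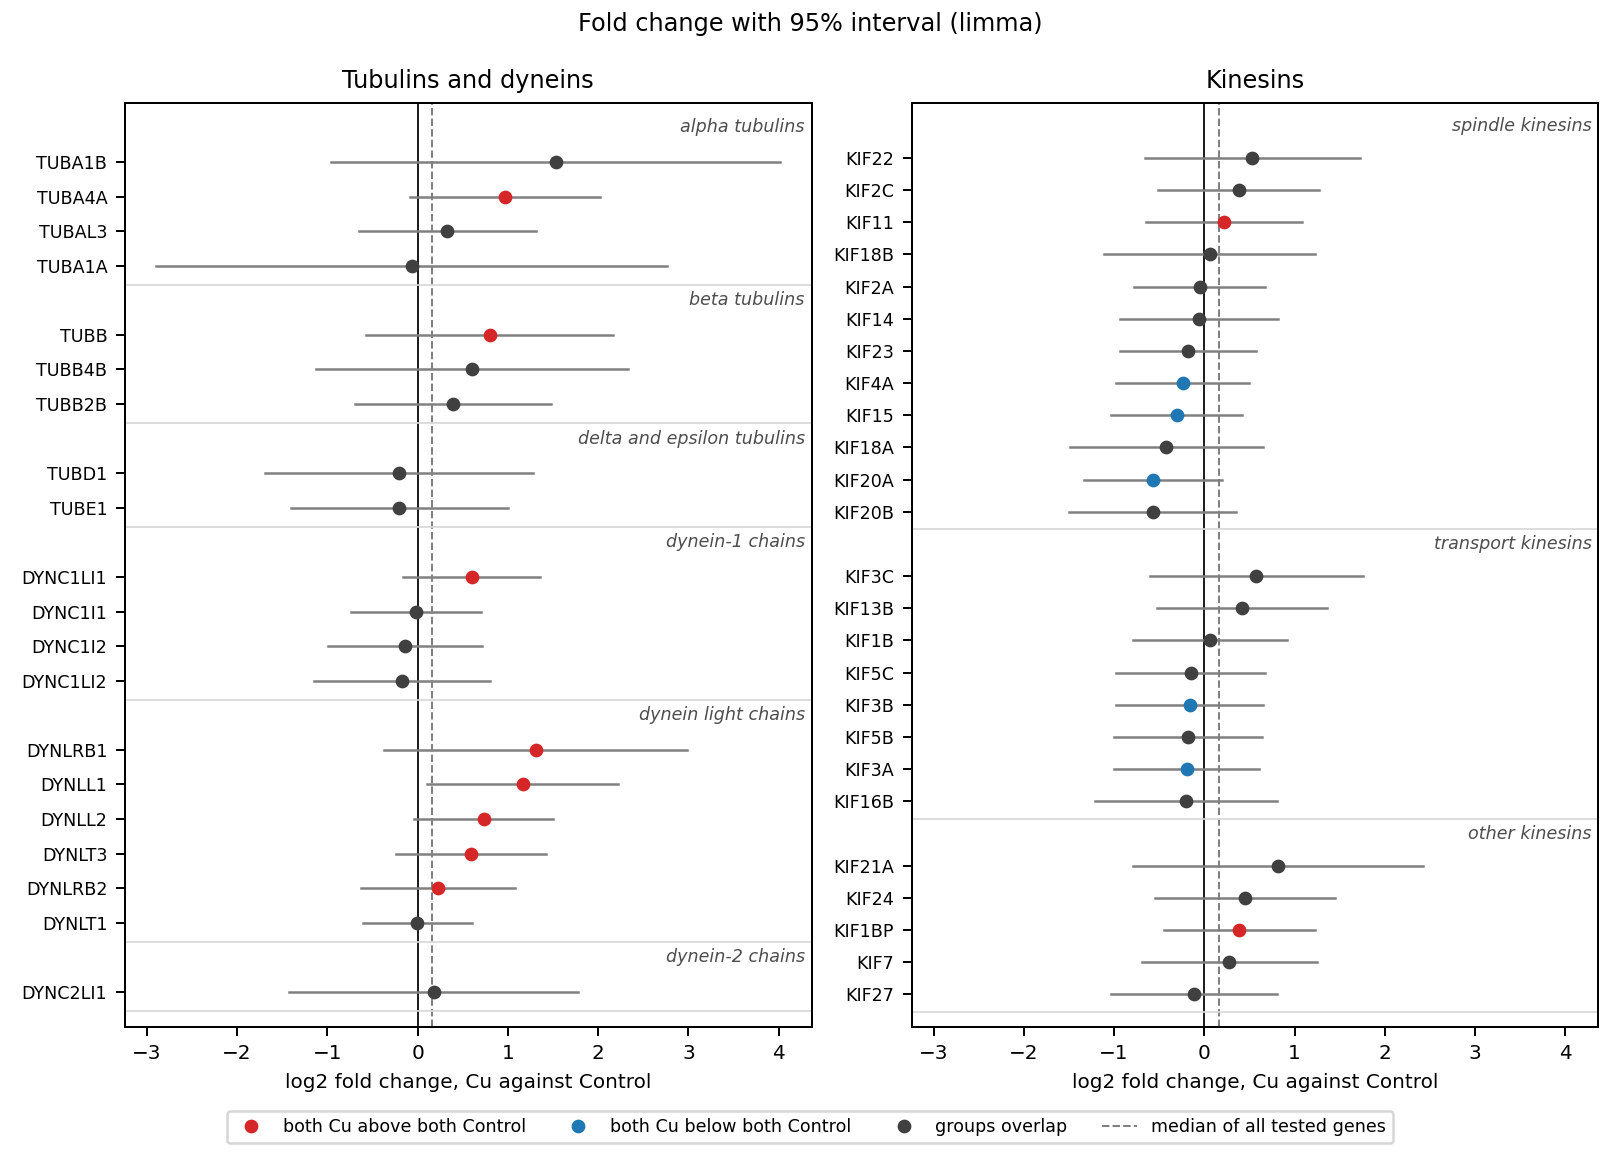
Log2 fold change of Cu against Control on the log2(FPKM + 1) scale (horizontal axis) with its 95% interval from limma for the 45 tested genes, by class. Red points mark the 10 genes in which Cu lay above Control in every pair of libraries, blue points the 5 with both below, and the dashed line the median of all tested genes, 0.16. The interval of DYNLL1 alone excludes 0.

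The alpha tubulins matched by symbol were low. TUBAL3, an alpha-tubulin-like gene, had the highest mean, with 19.0 and 13.1 FPKM in the Control libraries, 25.5 FPKM in Cu 1 and 15.7 FPKM in Cu 3. The groups overlapped, at a log2 fold change of 0.33 (95% interval -0.65 to 1.31). TUBA1B, a widely expressed alpha tubulin, had 1.74 and 17.2 FPKM in the Control libraries, 38.4 FPKM in Cu 1 and 9.53 FPKM in Cu 3. Its neighbour TUBA1A, the main alpha tubulin of developing neurons, had 0.23 and 7.82 FPKM in the Control libraries, 0.29 FPKM in Cu 1 and 6.68 FPKM in Cu 3. In TUBA1A each group therefore held 1 library near 0 and 1 near 7 FPKM, and in TUBA1B the Control libraries lay 2.73 log2 units apart and the Cu libraries 1.90, so that the 95% intervals of the log2 fold changes ran from -2.90 to 2.77 for TUBA1A and from -0.96 to 4.02 for TUBA1B. TUBA4A had lower values but separate groups, with 0.81 and 0.42 FPKM in the Control libraries, 3.35 FPKM in Cu 1 and 1.28 FPKM in Cu 3, a log2 fold change of 0.97 ± 0.43 (SE, limma's adjusted p = 0.708). It was 0.51 without Cu 1, 1.44 without Cu 3 and 1.67 with a pseudocount of 0.1. The separation holds for the libraries shown. Their Cu mean was 2.32 FPKM, whereas the authors' Cu mean, which covers a further library without values here, was 1.56 FPKM. TUBA8 was listed at 0.36 FPKM in Cu 1 and at 0 in the other libraries.

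TUBA1B and TUBA1A lie close together on chromosome 5 of Sscrofa11.1, at 15150229 to 15153620 and 15186059 to 15190211 in the RefSeq gene table. A row named LOC100127131, from 15153516 to 15269783, covers the whole of TUBA1A and 105 bases of TUBA1B. It had 478 and 600 FPKM in the Control libraries, 937 FPKM in Cu 1 and 515 FPKM in Cu 3, far above either of them. The table gives this row no other name, so whether it is itself a tubulin gene cannot be told from it. The methods name RSEM, which divides reads that fit several genes by estimate, and the processing notes Cufflinks, and which of them made the values is uncertain. The low values of TUBA1A and TUBA1B are therefore uncertain, and the summed values of the named alpha tubulins, 21.8 and 38.5 FPKM in the Control libraries, 67.9 FPKM in Cu 1 and 33.2 FPKM in Cu 3, cannot stand for the total alpha-tubulin message.

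The named beta tubulins were also low, and 3 of 5 were tested. TUBB, the beta tubulin of most dividing cells, had 7.49 and 7.23 FPKM in the Control libraries, 23.8 FPKM in Cu 1 and 7.50 FPKM in Cu 3. Its groups did not overlap in the libraries shown, but Cu 3 exceeded Control 1 by only 0.01 FPKM. The log2 fold change of 0.80 ± 0.56 (SE, limma's adjusted p = 0.779) became 0.024 without Cu 1. TUBB2B had 7.33 and 6.16 FPKM in the Control libraries, 13.03 FPKM in Cu 1 and 6.30 FPKM in Cu 3. TUBB4B had 1.95 and 1.55 FPKM in the Control libraries, 7.71 FPKM in Cu 1 and 0.98 FPKM in Cu 3, which was the lowest of the 4. All 3 genes were thus highest in Cu 1, while Cu 3 lay close to or below the Control libraries. Their median log2 fold change of 0.60 turned to -0.081 without Cu 1 and was 1.57 without Cu 3. TUBB4A and TUBB6 were at 0.1 FPKM or less in every library. Beta tubulins are close paralogs of each other, so reads may have been divided between them.

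Delta- and epsilon-tubulin are needed for the triplet microtubules of centrioles, which the mammalian oocyte loses during its growth. TUBE1 was the most abundant named tubulin, with 29.4 and 44.7 FPKM in the Control libraries, 20.2 FPKM in Cu 1 and 48.5 FPKM in Cu 3. TUBD1 had 5.73 and 9.75 FPKM in the Control libraries, 3.27 FPKM in Cu 1 and 11.8 FPKM in Cu 3. In both genes Cu 1 was the lowest and Cu 3 the highest library, so the Control libraries lay between the Cu libraries. The log2 fold changes were both -0.20 (95% interval -1.41 to 1.0 for TUBE1 and -1.69 to 1.28 for TUBD1) and changed sign without Cu 1.

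Kinesins with a known part in the spindle or in cytokinesis were the most strongly expressed kinesins, and 12 of the 13 with values were tested. KIF18A, which dampens the movements of chromosomes at microtubule plus ends, had 151 and 139 FPKM in the Control libraries, 71.3 FPKM in Cu 1 and 164 FPKM in Cu 3. KIF20B, a kinesin of cytokinesis, had 176 and 123 FPKM in the Control libraries, 75.0 FPKM in Cu 1 and 129.7 FPKM in Cu 3. KIF23, the motor of the centralspindlin complex at the central spindle, had 119 and 128 FPKM in the Control libraries, 91.1 FPKM in Cu 1 and 130.3 FPKM in Cu 3. In all 3 genes Cu 1 was the lowest library and Cu 3 lay among or above the Control libraries. The log2 fold changes were -0.42 ± 0.44 (SE) for KIF18A, -0.57 ± 0.38 (SE) for KIF20B and -0.18 ± 0.31 (SE) for KIF23, with adjusted p-values in limma's test from 0.775 to 0.909. Without Cu 1, KIF18A and KIF23 turned to 0.18 and 0.075, and KIF20B was -0.18.

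Both Cu libraries lay below both Control libraries in KIF20A, KIF15 and KIF4A. KIF20A, which carries the chromosomal passenger complex to the central spindle, had 44.8 and 57.8 FPKM in the Control libraries, 33.7 FPKM in Cu 1 and 34.2 FPKM in Cu 3. Its Cu libraries were nearly equal, the log2 fold change was -0.57 (95% interval -1.33 to 0.19, adjusted p = 0.728 in limma's test), and it stayed between -0.75 and -0.39 with each library left out in turn. KIF15, which can back up KIF11 in keeping spindle poles apart, had 41.9 and 44.2 FPKM in the Control libraries, 35.3 FPKM in Cu 1 and 34.0 FPKM in Cu 3. KIF4A, a chromosome-bound kinesin that limits microtubule growth in the central spindle, had 52.0 and 61.6 FPKM in the Control libraries, 50.4 FPKM in Cu 1 and 45.2 FPKM in Cu 3. The log2 fold changes were -0.30 ± 0.30 (SE) for KIF15 and -0.24 ± 0.30 (SE) for KIF4A, with both intervals including 0. Taken as plain means of 3 libraries, the authors' means imply a further Control value below both Cu values shown for KIF4A. With the further values they imply, KIF20A and KIF15 stay separate.

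KIF11, the kinesin that pushes spindle poles apart, was weakly expressed, with 4.94 and 4.42 FPKM in the Control libraries, 5.99 FPKM in Cu 1 and 5.22 FPKM in Cu 3. The groups did not overlap in the libraries shown, but the log2 fold change was only 0.22 ± 0.36 (SE) and became -0.054 after quantile normalization. KIF2A and KIF2C, which shorten microtubules from their ends, differed in level. KIF2A had 44.5 and 42.1 FPKM in the Control libraries, 43.6 FPKM in Cu 1 and 39.9 FPKM in Cu 3, a log2 fold change of -0.053 (95% interval -0.78 to 0.67). KIF2C had 16.9 and 21.6 FPKM in the Control libraries, 30.9 FPKM in Cu 1 and 20.5 FPKM in Cu 3, with overlapping groups. KIFC1, a minus-end kinesin that bundles microtubules and focuses spindle poles, was near the lower limit, with 0.31 and 0.15 FPKM in the Control libraries, 2.08 FPKM in Cu 1 and 0.84 FPKM in Cu 3, and did not enter the test. Among the remaining spindle kinesins, KIF14 ranged from 8.06 to 10.4 FPKM, KIF22 from 2.35 to 7.59 FPKM and KIF18B from 1.06 to 3.56 FPKM, all with overlapping groups. Over the 12 tested genes the median log2 fold change was -0.12, with 8 lower and 4 higher in Cu, and it was 0.28 below the median of all tested genes. After quantile normalization and median-of-ratios scaling it was -0.33 and -0.36, or 0.26 and 0.32 below that median.

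Among 11 carriers of vesicles and organelles 8 were tested. KIF5B, the ubiquitous kinesin-1 motor, had 24.1 and 20.0 FPKM in the Control libraries, 21.6 FPKM in Cu 1 and 17.1 FPKM in Cu 3, and was between 9.76 and 14.0 times as high as its relative KIF5C in each library. KIF3A, a motor subunit of heterotrimeric kinesin-2, had 17.8 and 19.3 FPKM in the Control libraries, 14.9 FPKM in Cu 1 and 17.3 FPKM in Cu 3. Its partner KIF3B had 1.97 and 2.07 FPKM in the Control libraries, 1.62 FPKM in Cu 1 and 1.79 FPKM in Cu 3. The ratio of KIF3A to KIF3B was nearly constant, from 9.04 to 9.68 over the 4 libraries. In both genes the Cu libraries lay below the Control libraries, at log2 fold changes of -0.20 ± 0.33 (SE) and -0.16 ± 0.33 (SE). With the further values that the authors' means imply, the groups overlap in both genes. KIF13B, a kinesin-3 motor, had 8.27 and 13.02 FPKM in the Control libraries, 12.7 FPKM in Cu 1 and 15.9 FPKM in Cu 3, with overlapping groups. KIF1A and KIF1C were below 0.1 FPKM in every library, whereas KIF1B, the third of these vesicle motors, had 7.61 to 8.77 FPKM. KIF3C, a relative of KIF3B named after its values were seen, had 1.52 and 1.23 FPKM in the Control libraries, 4.37 FPKM in Cu 1 and 1.33 FPKM in Cu 3, so its log2 fold change of 0.58 ± 0.48 (SE) rested on Cu 1. The median over the 8 tested transport kinesins was -0.15, with 5 lower and 3 higher. It was -0.36 after quantile normalization, -0.31 after median-of-ratios scaling and 0.015 without Control 2.

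Of the 10 remaining kinesin-named genes 5 were tested, with a median log2 fold change of 0.39. KIF7 and KIF27, relatives with KIF7 known for its part in Hedgehog signalling, ranged from 3.27 to 5.95 and from 4.43 to 6.39 FPKM with overlapping groups. KIF1BP had 8.81 and 7.83 FPKM in the Control libraries, 11.00 FPKM in Cu 1 and 11.3 FPKM in Cu 3. The libraries shown gave separate groups at a log2 fold change of 0.39 (95% interval -0.45 to 1.22). KIF21A, which restrains microtubule growth at the cell cortex, ranged from 1.62 to 3.03 FPKM in 3 libraries and reached 9.77 FPKM in Cu 1. The median of the 5 genes turned to -0.012 without Cu 1.

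In the cytoplasmic dynein complex (dynein-1) the message of the motor subunit and those of its smaller chains were far apart. DYNC1H1, the heavy chain that holds the motor domain, had 0.11 and 0.08 FPKM in the Control libraries, 0.29 FPKM in Cu 1 and 0.08 FPKM in Cu 3. DYNC1I2, an intermediate chain that links the motor to dynactin, had 110.5 and 167 FPKM in the Control libraries, 104 FPKM in Cu 1 and 148 FPKM in Cu 3. Per unit of length, DYNC1I2 was thus between 357 times (Cu 1) and 2090 times (Control 2) as high as DYNC1H1. Whether this gap lies in the oocyte or in the way the library or the gene model covers a very long mRNA was not tested.

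Of the 4 tested accessory chains of dynein-1, 3 had overlapping groups. DYNC1I1, the other intermediate chain, was among the most even genes, with 41.0 and 43.8 FPKM in the Control libraries, 42.1 FPKM in Cu 1 and 41.3 FPKM in Cu 3, a log2 fold change of -0.021 (95% interval -0.74 to 0.70). For DYNC1I2 the log2 fold change was -0.13 (95% interval -0.99 to 0.72) with overlapping groups. DYNC1LI2, a light intermediate chain that binds cargo adaptors, had 31.9 and 34.4 FPKM in the Control libraries, 40.1 FPKM in Cu 1 and 21.3 FPKM in Cu 3. Its paralog DYNC1LI1 had 0.54 and 0.40 FPKM in the Control libraries, 1.22 FPKM in Cu 1 and 1.23 FPKM in Cu 3. The Cu libraries of DYNC1LI1 were nearly equal and both above the Control libraries, at a log2 fold change of 0.60 ± 0.31 (SE, limma's adjusted p = 0.727), or 1.23 with a pseudocount of 0.1. The authors' Cu mean, which covers a further library without values here, was lower than both, at 0.957 FPKM.

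Dynein-2 is the motor of transport within cilia. Its light intermediate chain DYNC2LI1 (chromosome 3, 96656099 to 96703282) had 1681 and 2855 FPKM in the Control libraries, 1243 FPKM in Cu 1 and 4952 FPKM in Cu 3, above 99.8% of all genes with values by its mean level. Its heavy chain DYNC2H1 had 0.84 and 0.70 FPKM in the Control libraries, 0.50 FPKM in Cu 1 and 0.58 FPKM in Cu 3. The Cu libraries of DYNC2LI1 held both the lowest and the highest value, and the log2 fold change of 0.18, which was -0.069 after median-of-ratios scaling, had a 95% interval from -1.42 to 1.78. ABCG5, which shares 795 bases with DYNC2LI1, had 3.01 to 5.16 FPKM.

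In 5 of the 6 dynein light chains the Cu libraries lay above the Control libraries, against 25.4% of all tested genes, and 1 of these, DYNLRB2, had a negative log2 fold change after quantile normalization. This holds for the libraries shown only. In each of the 5 genes the authors' Control mean, which covers a further library without values here, lay above both Control values. For DYNLRB1 it was 5.37 FPKM, above Cu 3, and for DYNLRB2 9.68 FPKM, above Cu 1. Taken as plain means of 3 libraries, these Control means imply a further Control value above the lower Cu value in each of the 5 genes. The groups of all 5, DYNLL1, DYNLL2 and DYNLT3 among them, then overlap. DYNLL1 and DYNLL2 encode the nearly identical LC8 light chains, which join pairs of intermediate chains and also bind many proteins outside dynein. DYNLL1 (chromosome 14, 40455954 to 40458352) had 152 and 214 FPKM in the Control libraries, 598 FPKM in Cu 1 and 276 FPKM in Cu 3. The log2 fold change of DYNLL1 was 1.17 ± 0.43 (SE, 95% interval 0.11 to 2.22, limma's adjusted p = 0.656), the only one of the 45 with an unadjusted p below 0.05, and it was 0.61 without Cu 1 and 1.72 without Cu 3. DYNLL2 had 54.6 and 58.2 FPKM in the Control libraries, 112 FPKM in Cu 1 and 79.5 FPKM in Cu 3, a log2 fold change of 0.73 ± 0.31 (SE, limma's adjusted p = 0.708). Within a library DYNLL1 was 2.78 and 3.68 times as high as DYNLL2 in Control 1 and 2, and 5.34 and 3.47 times in Cu 1 and 3.

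DYNLRB1, a roadblock-type light chain, had 3.61 and 4.08 FPKM in the Control libraries, 23.3 FPKM in Cu 1 and 4.90 FPKM in Cu 3. Its log2 fold change was 1.31 ± 0.69 (SE), of which 0.29 was left without Cu 1. Its paralog DYNLRB2 was nearly even, with 7.66 and 8.27 FPKM in the Control libraries, 8.76 FPKM in Cu 1 and 10.2 FPKM in Cu 3, a log2 fold change of 0.23 that became -0.051 after quantile normalization. DYNLT3, a Tctex-type light chain, had 1.76 and 1.78 FPKM in the Control libraries, 3.25 FPKM in Cu 1 and 3.12 FPKM in Cu 3. In the libraries shown its groups were separate with nearly equal replicates, at a log2 fold change of 0.60 ± 0.34 (SE, limma's adjusted p = 0.740).

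DYNLT1, the related Tctex-type chain (chromosome 1, 8556083 to 8562865), was by contrast among the most abundant and most even genes. It had 2779.8 and 2464 FPKM in the Control libraries, 2301 FPKM in Cu 1 and 2963 FPKM in Cu 3, above 99.8% of all genes by mean level. The groups overlapped, at a log2 fold change of -0.0035 with a 95% interval from -0.60 to 0.60. Over the 6 light chains the median log2 fold change was 0.66, which exceeded that of all tested genes by 0.50, and by 0.53 and 0.50 after quantile normalization and median-of-ratios scaling. Without Cu 1 the median was 0.41 and without Cu 3 it was 0.80.

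The Cu libraries often disagreed gene by gene. They lay on the same side of the mean of the Control libraries in 25 of the 45 genes, 15 above and 10 below, and on opposite sides in 20. Cu 1 was above that mean in 25 genes (67.0% of all tested genes), and Cu 3 in 25 as well (50.3%). Cu 1 and Cu 3 were 1 log2 unit or more apart in 13 genes, and the Control libraries in 2, TUBA1A and TUBA1B. In 8 of the 13 Cu 1 was the higher library. For the counts of sides shared by the Cu libraries and of genes 1 log2 unit or more apart, the shares of all tested genes were not computed. The median distance between the Cu libraries was 0.51 log2 units for the 45 genes and 0.56 for all tested genes. The Cu libraries were farther apart than the Control libraries in 33 of the 45 genes, as in 70.5% of all tested genes. Cu 1 had the highest value of the 4 libraries in 19 of the 45 genes, against 51.0% of all tested genes.

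**Figure D3:**
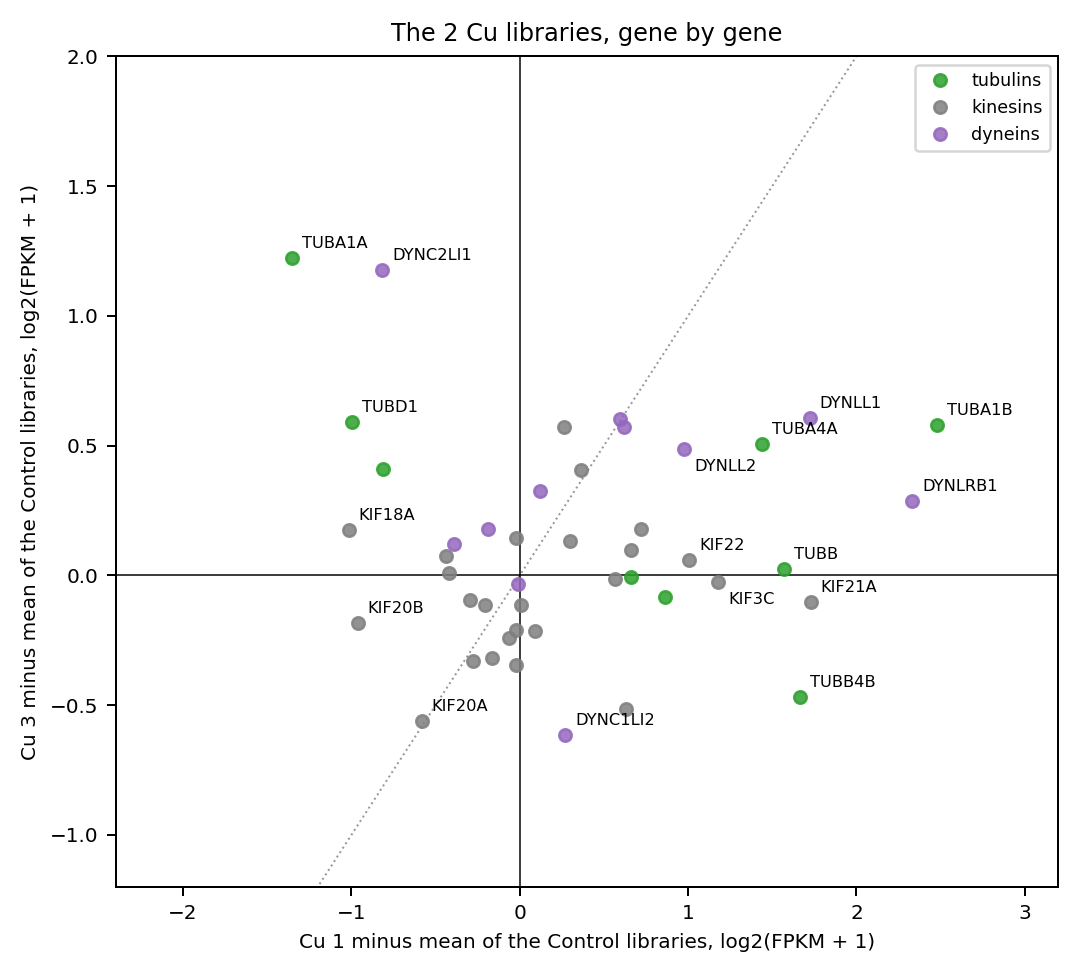
Difference of each Cu library from the mean of the Control libraries in log2(FPKM + 1), with Cu 1 on the horizontal and Cu 3 on the vertical axis, for the 45 tested genes, and a dotted line of equality. Tubulins are green, kinesins grey and dyneins purple. Genes to the right and above both axis lines (15) were above the Control mean in both Cu libraries, TUBA1B and DYNLRB1 lie farthest right, and TUBA1A and DYNC2LI1 lie at the upper left, below the Control mean in Cu 1 and above it in Cu 3.

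The fold changes of these genes also differed with the length of the gene on the chromosome. Across the 45 tested genes, the log2 fold change had a Pearson's correlation of -0.51 (Spearman's -0.47) with the log10 of the gene's span in RefSeq, as a description over genes that share the same libraries. Over all 8541 tested genes the same correlations were -0.27 and -0.27. The 10 shortest tested genes, of 2399 to 10829 bases, had a median log2 fold change of 0.67 with 7 higher in Cu, and the 10 longest, of 91768 to 345865 bases, a median of -0.069 with 4 higher. DYNLL1 was the shortest and DYNC1I1 the longest of the 45. The length of the mRNA was not used here.

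The partners of these motors and of tubulin were read from the same fit, in 6 lists with 52 tested genes. At an unadjusted p of 0.05 in limma's test 6 of the 52 were higher in Cu (5.58% of all tested genes) and 1 lower (1.43%), and none reached 0.05 after adjustment. Tubulin folding had the highest median log2 fold change of the lists, 0.87, which was 0.26 without Cu 1. In it 10 of 12 tested genes were higher, against 64.3% of all tested genes, and 3 were past the unadjusted p. Under both other scalings 8 of the 12 were higher. Counted against the median of all tested genes, 8 of the 12 lay above it before these scalings. The count was 9 after quantile normalization and 8 after median-of-ratios scaling. TBCA, which takes up beta-tubulin on its way into the dimer, had 90.9 and 96.7 FPKM in the Control libraries, 234 FPKM in Cu 1 and 188 FPKM in Cu 3, a log2 fold change of 1.15 ± 0.28 (SE, limma's adjusted p = 0.631). PFDN6, a subunit of prefoldin, which hands new tubulin and actin chains to the folding chaperonin, had 34.4 and 32.1 FPKM in the Control libraries, 146 FPKM in Cu 1 and 83.0 FPKM in Cu 3, a log2 fold change of 1.70 ± 0.37 (SE). TBCC, which acts in the last step of dimer assembly, had 13.9 FPKM in both Control libraries and 57.2 and 21.1 FPKM in Cu 1 and 3. TBCB, which takes up alpha-tubulin, had in contrast 170 and 185 FPKM in the Control libraries, 113 FPKM in Cu 1 and 145 FPKM in Cu 3, at a log2 fold change of -0.47 ± 0.28 (SE), and is named after its values were seen.

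Dynactin, the complex that makes dynein processive, had 8 tested subunits, 4 higher and 4 lower, with a median log2 fold change of 0.063. DCTN3 had 6.70 and 4.49 FPKM in the Control libraries, 53.7 FPKM in Cu 1 and 10.9 FPKM in Cu 3, a log2 fold change of 1.97 ± 0.73 (SE, limma's adjusted p = 0.656). DCTN6 had 123 and 150.1 FPKM in the Control libraries, 194 FPKM in Cu 1 and 277 FPKM in Cu 3. The largest subunit DCTN1, which binds both dynein and the microtubule, was not tested, with 0.43 and 0.15 FPKM in the Control libraries, 0.83 FPKM in Cu 1 and 0.37 FPKM in Cu 3. It is named after its values were seen. Of 11 dynein regulators and adaptors 7 were higher and 4 lower in Cu. NDEL1, which ties LIS1 to dynein, had 18.5 and 20.8 FPKM in the Control libraries, 52.9 FPKM in Cu 1 and 30.8 FPKM in Cu 3, a log2 fold change of 1.0 ± 0.38 (SE). HOOK3, an adaptor that activates dynein, had 17.4 and 22.0 FPKM in the Control libraries, 11.2 FPKM in Cu 1 and 9.10 FPKM in Cu 3, a log2 fold change of -0.89 ± 0.35 (SE) and the single partner gene past the unadjusted p in the downward direction.

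In the remaining lists no gene passed the unadjusted p of 0.05 in limma's test. The median log2 fold change was -0.30 for 5 partners of gamma-tubulin, -0.17 for 4 kinesin partners and 0.10 for 12 enzymes that modify or sever microtubules. Without Cu 1 the first was -0.040 and the second -0.037. After quantile normalization the enzymes had a median of -0.16, so their direction depends on the scaling, as does that of dynactin (-0.22 after quantile normalization). The median of all tested genes also fell, from 0.16 to -0.068. Relative to it, the enzymes went from -0.064 to -0.089 and dynactin from -0.10 to -0.15.

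**Figure D4:**
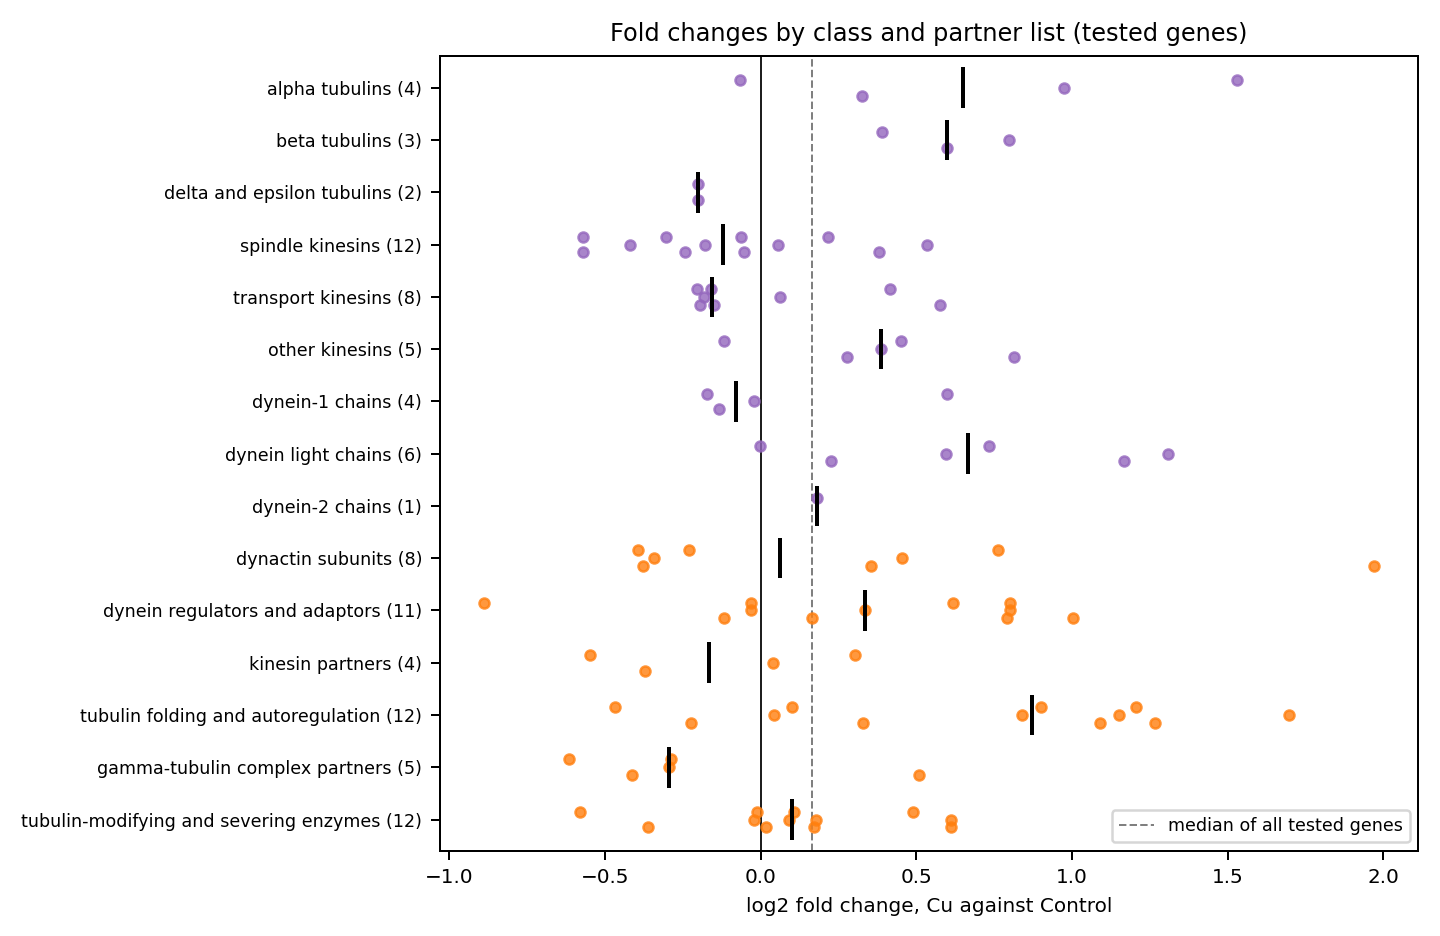
Log2 fold change of Cu against Control (horizontal axis) for the tested genes of each class (purple) and each partner list (orange), with the number of genes in brackets and the median as a black bar. The dashed line is the median of all tested genes, 0.16. Tubulin folding (0.87), dynein light chains (0.66) and alpha tubulins (0.65) have the highest medians, and partners of gamma-tubulin (-0.30) and delta and epsilon tubulins (-0.20) the lowest.

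Group means by the authors stand beside the libraries, and the methods describe 3 sets of oocytes per group. These means cover a further library per group that has no values here. For KIF1C, at 0 FPKM in both Control libraries, the authors' Control mean was 0.03. For DYNLT3 their Cu mean lay below both Cu libraries. Taken as plain means of 3 libraries, they imply further values with which the groups overlap in all 10 genes called separate upward. Of the 5 called separate downward, the groups then overlap in KIF4A, KIF3A and KIF3B and stay separate in KIF20A and KIF15. By these authors' means Cu was higher than Control in 26 of the 45 genes, and the direction was the same as that of the log2 fold change in 35. The libraries shown enter both measures, so part of this agreement is built in. The matching shares over all tested genes were not computed. For DYNLL1 the authors' means were 246 for Control and 528 for Cu, for DYNLL2 65.3 and 108, for KIF20A 50.5 and 35.2, and for TUBB 6.38 and 12.5. Those of DYNLT3 were closer than the libraries, with 2.28 and 2.52. In DYNLL1, DYNLL2 and DYNLT3 the authors' Control mean lay above both Control libraries, so the further Control value was higher.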

How the data were processed

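RNA of 4 libraries of porcine Metaphase II oocytes was analysed, grouped by their labels into Control 1 and 2 and Cu 1 and 3. According to the methods reads were cleaned (SOAPnuke), mapped (HISAT2, Bowtie2) and quantified (RSEM) by the authors. The submitters' processing notes instead list TopHat2 2.0.13, Cufflinks 2.2.1 and the Sscrofa11.1 build, so which made the values is uncertain. The values the authors deposited are FPKM, rounded to 2 decimals, with a smallest value above 0 of 0.01, and the depth and its precision are unknown. The whole table of 16050 genes was fitted with limma 3.58.1 in R 4.3.3 (variance trend) on log2(FPKM + 1). Entered were 8541 genes that reached 1 FPKM in 2 or more libraries, with Benjamini-Hochberg adjustment over all of them. The study used a count-based test, which FPKM do not allow. The pseudocount of 1 understates the change of genes with low FPKM.

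Classes and partner lists were written by hand. The genes, lists and tests were chosen with earlier results of these data known. Named with values are the 3 most abundant genes of each class, those with an unadjusted p of 0.05 or less, the 3 largest fold changes in each direction among genes with separate groups, and a fixed set of spindle genes. Others are named to complete a class, after their values were seen. Positions and gene spans are from the RefSeq table of Sscrofa11.1, in which all 59 identifiers matched. Of 57 genes on placed chromosomes, 12 overlap another row with values. Alternatives were another pseudocount (0.1), no filter, quantile normalization, median-of-ratios scaling, no variance trend and leaving out each library.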

Additional observations from a re-analysis of the deposited data

How the results depend on the processing

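No paired analysis was made, because the labels do not say that any Control library was paired with a Cu library. Over the 5 settings that kept all libraries, none of the tubulin, kinesin and dynein genes reached 0.05 after adjustment. The number past an unadjusted p of 0.05 and higher in Cu was 0 without the variance trend. Without the filter on low values all 59 genes entered, so counts are over more genes than the 45, and 2 were past that p, 16 were separated upward (each Cu value above each Control value) and the median of the then 13 spindle kinesins was -0.062. Quantile normalization moved the median log2 fold change of all tested genes to -0.068 and that of the spindle kinesins to -0.33, with 5 genes separated upward and 12 downward, and made KIF11 -0.054 and the number of partner genes lower at an unadjusted p of 0.05 equal to 2. Median-of-ratios scaling gave 6 and 12 separated genes, -0.36 for the spindle kinesins, -0.32 for the dynein-1 chains and -0.069 for DYNC2LI1, and a pseudocount of 0.1 gave 0.0084 for TUBA1A. The signs of 5 of the 45 genes depended on the scaling. The shares of all tested genes separated under these settings were not computed, so the counts of separated genes have no background. The cause of these shifts was not tested.

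With 1 library left out, the lone library of its group is assumed to vary like the other group. The number past an adjusted p of 0.05 then ran from 0 to 1755 over all genes and from 0 to 11 over the 45, and past an unadjusted p from 0 to 11 higher and from 0 to 5 lower. Separated genes ran from 14 to 22 upward and from 9 to 14 downward, which fewer libraries alone can bring about. The matching shares over all tested genes were not computed. For the partner genes the counts ran from 1 to 14 higher and from 0 to 7 lower. Medians ran from -0.081 to 1.57 for beta tubulins, from -0.012 to 0.57 for other kinesins and from -0.15 to -0.077 for spindle kinesins. Of the 45 genes, 23 kept their sign with each library left out. For KIF14, KIF16B, KIF18B, KIF1B, KIF21A, KIF2A and KIF3C the range crossed 0. The other ranges that did so were -0.068 to 0.025 for DYNC1I1, -0.43 to 0.16 for DYNC1I2, -0.62 to 0.27 for DYNC1LI2, -0.82 to 1.18 for DYNC2LI1, -0.19 to 0.18 for DYNLT1, -1.02 to 0.18 for KIF18A, -0.44 to 0.075 for KIF23, -0.34 to 0.11 for KIF27, -0.012 to 0.57 for KIF7, -1.49 to 1.36 for TUBA1A, -0.0076 to 0.66 for TUBAL3, -0.081 to 0.86 for TUBB2B, -0.47 to 1.67 for TUBB4B, -0.99 to 0.59 for TUBD1 and -0.81 to 0.41 for TUBE1.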
